A study of Homo sapiens with 12 samples.

Results

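The glutathione and NRF2 antioxidant genes are 42 protein-coding genes that sense, make or spend the reducing power with which a cell clears peroxides and reactive metabolites. They were picked by gene symbol from 58278 listed genes, and all 42 had a row in each of 12 mRNA sequencing libraries. GPX7 was listed at 0 in all 12 libraries, so 41 genes were tested. The libraries came from HK2 cells, an established line of human proximal tubular epithelial cells (TECs) grown in serum with insulin, transferrin, selenite and hydrocortisone. Each of 6 groups held 2 biological replicates. Ctrl cells were untreated, and TN cells received TNF-α at 5 ng/mL for 3 h. PRTN and BUTN cells received 15 mM propionate or 3 mM butyrate, short-chain fatty acids (SCFAs), for 24 h before the same TNF-α induction. TNPR and TNBU cells received the same SCFA doses for 24 h after it. No group had an SCFA without TNF-α, and none followed TNF-α for a further 24 h without an SCFA. In TNPR and TNBU, SCFA and time since TNF-α therefore cannot be told apart. The doses of the SCFAs differed, and every value comes from 1 cell line.

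NRF2, encoded by NFE2L2, is a transcription factor that KEAP1 holds in the cytoplasm and hands over for degradation. Oxidants and electrophiles modify KEAP1, NRF2 then accumulates, and with a small MAF partner it binds antioxidant response elements near genes for glutathione synthesis, thioredoxin reduction and detoxification. NRF2 is thus mostly controlled as a protein, which mRNA counts do not show. Glutathione and thioredoxin are recycled with NADPH, and both feed enzymes that reduce hydrogen peroxide and lipid peroxides. In the kidney the proximal tubule works with a high mitochondrial oxygen use, and it is the main source of the secreted peroxidase GPX3.

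The core letters of the antioxidant response element, TGACNNNGC, were searched on both strands of the RefSeq promoter windows (GRCh38.p14), which run from 250 bases before to 50 bases after a gene's start. Of the 42 genes, 32 had a window, and 8 of those (25.0%) held a match, against 16.1% of all 27305 genes with a window. In these windows a match was found in 2 of 10 genes that rose with the SCFAs in all 4 groups, 3 of 8 that fell in all 4, and 2 of 7 that were called in none. A match is a description of the letters and not of NRF2 binding. The sites below are shown because they stand before genes of all those kinds. Capitals mark the match, and each sequence is printed 5′ to 3′ on the strand that carries it.
TXNRD1, rose, chr12:104215670-104215698, plus strand: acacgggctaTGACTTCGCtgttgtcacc
GCLM, called in PRTN, chr1:93909446-93909474, plus strand: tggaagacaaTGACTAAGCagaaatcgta
KEAP1, fell, chr19:10502784-10502812, plus strand: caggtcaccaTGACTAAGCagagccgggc
GSTO1, fell, chr10:104254656-104254684, plus strand: ggcggagggaTGACTGAGCatttataact
GSTP1, not called, chr11:67583736-67583764, plus strand: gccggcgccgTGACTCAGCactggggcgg
GPX2, not called, chr14:64942849-64942877, plus strand: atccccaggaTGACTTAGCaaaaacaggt
The match at GCLM, whose product is the modifier subunit of glutamate-cysteine ligase, begins 34 bases before the start on the opposite strand to the gene, and it has the same 9 letters as the match at KEAP1.

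Library depth ranged from 27269986 to 33851130 expected counts. The replicate pairs of TNPR and TNBU lay farther apart than the others, with a median absolute difference over the members of 0.146 and 0.129 (log2) against 0.0298 to 0.105. A level in CPM is the count relative to the TMM-scaled size of its library, and a gene is called when limma-voom gives a fold change over 1.5 and a Benjamini-Hochberg adjusted p under 0.05 over all 24342 genes tested. Under scaling by library size alone the median of all genes moved up by 0.15 to 0.20 (log2) against TN. The TNF-α genes TNFAIP3, NFKBIA, CCL2 and CXCL8 all rose in TN. The tubular label rests on few markers: LRP2 was at 0 in the Ctrl and TN libraries, SLC22A6 was at 0 in all 12, and the 8 proximal tubule markers summed to 4.04 to 6.49 CPM in Ctrl and TN and 14 to 23.7 in the SCFA groups. Endothelial markers (3 of 4 tested) summed to 0.143 to 0.287 CPM in Ctrl and TN and 2.21 to 3.64 in the SCFA groups. Leukocyte markers (3 of 7 tested) summed to at most 3.27 CPM, with PTPRC at no more than 0.152 and MS4A1 at 0 in all 12 libraries. Epithelial markers summed to 1116 to 1215 CPM in Ctrl and TN and 1729 to 2318 in the SCFA groups, where EPCAM was the lower at 13.3 to 23.2 CPM against 55.1 to 58.1. Fibroblast markers summed to 44.4 to 53.4 CPM and to 153 to 211 CPM, nearly all from COL1A1. These sums moved with the SCFA groups like many members below, and their part in the results was not tested. In bulk RNA, fewer cells that express a gene cannot be told apart from less RNA in each.

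TNF-α alone left the group almost unmoved, with SOD2 as the exception. SOD2, the mitochondrial superoxide dismutase and a known NF-κB target, was the 1 member called higher in TN than in Ctrl, where 0.764% of all tested genes were called higher. No member was called lower, against 0.534% of all genes. By edgeR and DESeq2 the counts were also 1 and 0. At an unadjusted p under 0.05 they were 6 and 5, and the share of all genes was not taken there. Past the adjusted p but under 1.5-fold, FTH1, the ferritin heavy chain, was higher in TN by 0.29 ± 0.04 (log2, SE, limma-voom adjusted p = 0.0021) and TXNRD1 by 0.26 ± 0.06 (limma-voom adjusted p = 0.044). For 34 of the 41 tested genes the 95% interval of the TN change lay within 1.5-fold in both directions.

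With an SCFA the same genes split into risers and fallers. Against TN, 15 members were higher and 13 lower in PRTN, 13 and 13 in TNPR, 15 and 11 in BUTN, and 14 and 10 in TNBU. Among all tested genes 23.9% were higher and 16.7% lower in PRTN, 24.9% and 16.9% in TNPR, 23.1% and 14.8% in BUTN, and 25.0% and 16.5% in TNBU. The median log2 fold change of the tested members was 0.06, 0.10, 0.14 and 0.18 in that order, beside 0.09, 0.12, 0.08 and 0.09 for all genes, so the group had no common direction. High expression raises the power to call. Of the 33 members with a mean of at least 10 CPM, 11 rose and 11 fell in PRTN, beside 1834 and 2366 of the 10194 genes at that level, and in TNBU 10 and 9 beside 1721 and 2517.

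**Figure D1:**
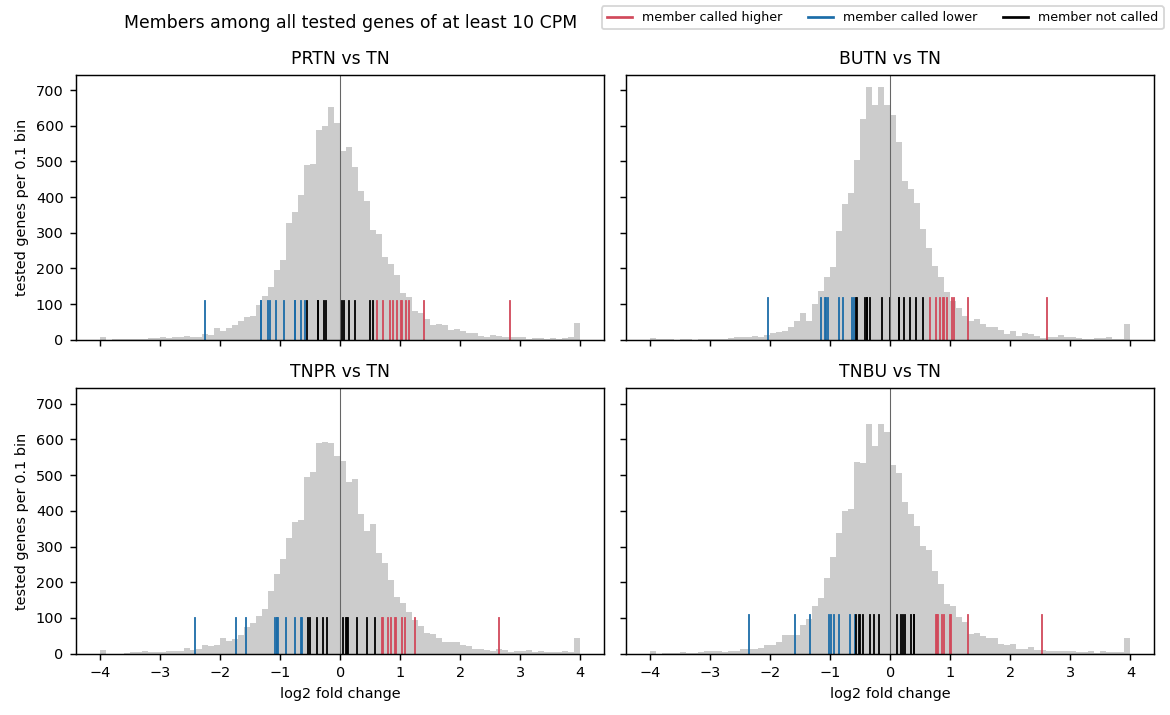
Grey bars count all tested genes of at least 10 CPM per 0.1 of log2 fold change against TN, with genes beyond 4 in the end bars, and vertical lines mark the 33 members at that level (red called higher, blue called lower, black not called). The members lie on both sides of 0 in all 4 panels, with GPX3 farthest right and SOD2 farthest left.

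Across the 4 SCFA groups 13 members rose in each: GCLC, GSR, GPX3, TXNRD1, SRXN1, PRDX1, SOD3, CAT, GSTA4, GSTM2, GSTM3, MGST3 and HMOX1. In every SCFA group 9 fell: KEAP1, GPX8, TXNRD2, SOD2, GSTO1, GSTK1, MGST1, MGST2 and NQO1. Among all tested genes 18.4% rose and 11.9% fell in all 4. The risers SOD3 and GSTM2, like GSTM4, passed the filter on low counts only through the SCFA libraries, where they were high, so their place among the risers follows in part from the filter. Of the 38 members that pass it on the Ctrl and TN libraries alone, 11 rose and 9 fell in all 4 groups, beside 16.1% and 13.3% of the 21749 genes that do so. The 4 comparisons share the TN libraries, so they are not independent of each other. A further 3 members rose in some groups, 5 fell in some, and 11 were called in none. The 12 members taken here as NRF2 readouts (GCLC, GCLM, GSR, NQO1, HMOX1, TXN, TXNRD1, SRXN1, SLC7A11, PRDX1, FTH1 and OSGIN1) were also split. Of these, 7 rose and 4 fell in PRTN, 6 and 3 in TNPR, 7 and 2 in BUTN, and 6 and 2 in TNBU. That is 50% to 58.3% higher and 16.7% to 33.3% lower, beside 23.1% to 25.0% and 14.8% to 16.9% of all tested genes. Their median log2 fold change lay between 0.62 and 0.75, above the medians of all genes given before. These 12 are a subset of members that were chosen with earlier results of these data known. The comparison with all genes is therefore a description and not a test.

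**Figure D2:**
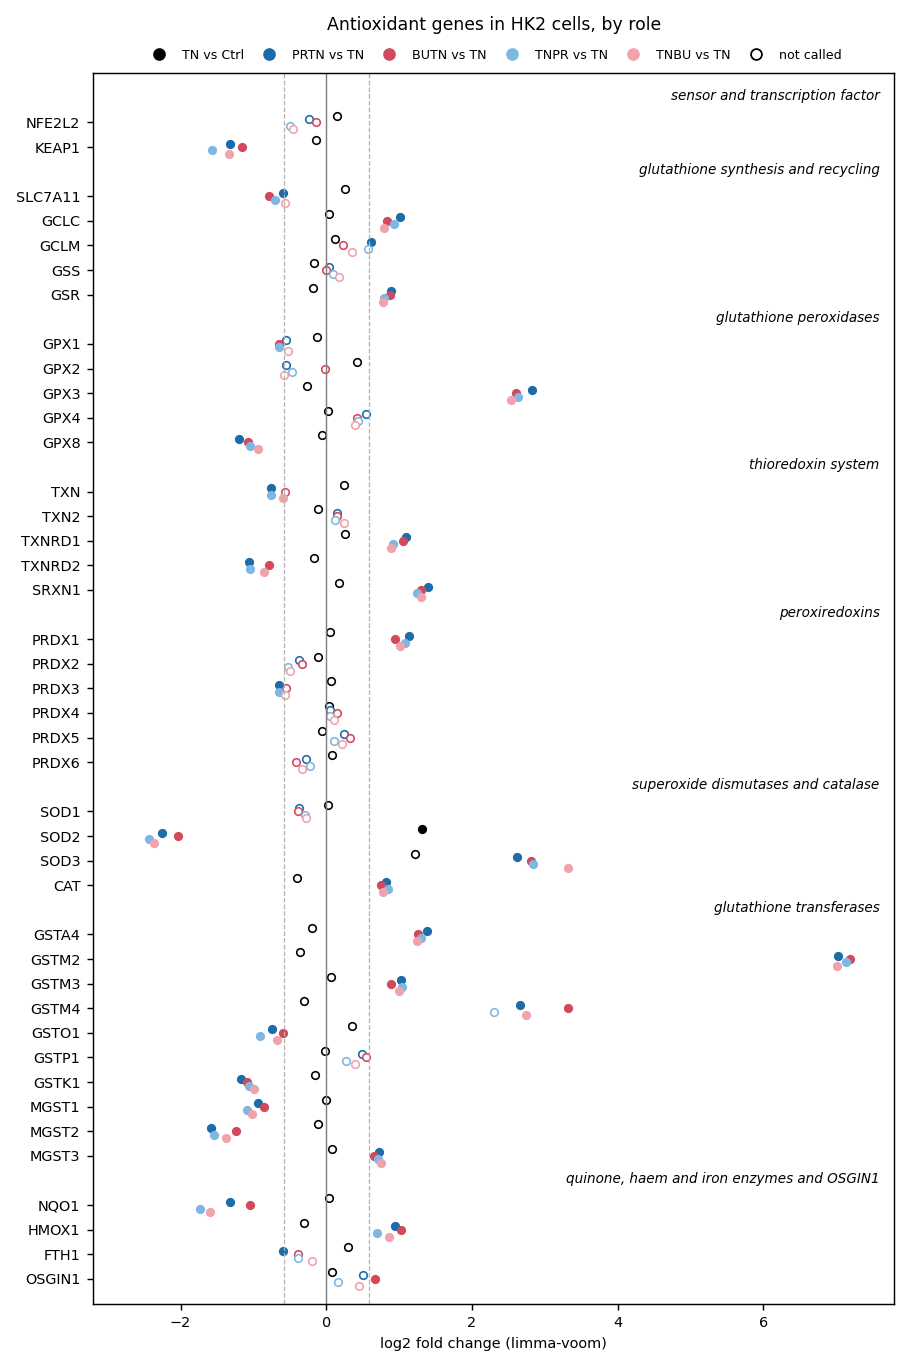
Each row is 1 of the 41 tested members, grouped by role, and points give the log2 fold change in TN against Ctrl (black) and in each SCFA group against TN (colours), filled where called. Dashed lines mark 1.5-fold, and GSTM2 lies at about 7 in every SCFA group.

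Of the regulators KEAP1 and NFE2L2, KEAP1 was called lower in every SCFA group and NFE2L2 in none. KEAP1 mRNA stood at 69.8 and 67.4 CPM in Ctrl, 57.3 and 67.2 in TN and, with an SCFA, at 23.8 and 25.7 in PRTN, 22.3 and 19.5 in TNPR, 28.6 and 26.9 in BUTN and 26.4 and 23.1 in TNBU. All 8 SCFA libraries lay below every Ctrl and TN library. Against TN the log2 fold change was -1.33 ± 0.10 in PRTN, -1.57 ± 0.10 in TNPR, -1.16 ± 0.10 in BUTN and -1.33 ± 0.10 in TNBU (SE, limma-voom adjusted p between 5.4e-08 and 6.5e-07). NFE2L2 stood at 134 and 135 CPM in Ctrl, 155 and 143 in TN and, with an SCFA, at 127 and 125 in PRTN, 103 and 107 in TNPR, 137 and 133 in BUTN and 115 and 103 in TNBU. Its log2 fold change against TN was -0.24 ± 0.06 in PRTN, -0.50 ± 0.06 in TNPR, -0.14 ± 0.06 in BUTN and -0.45 ± 0.07 in TNBU, short of 1.5-fold in every group although the limma-voom adjusted p was 0.0059, 2.5e-05, 0.080 and 6.7e-05 in that order. Under scaling by library size alone the BUTN value was 0.01, so no direction is given for BUTN. The PRTN value was small too, and it ranged from -0.33 to -0.09 over the alternatives. The TNPR and TNBU libraries held less NFE2L2 mRNA than any other library.

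Glutathione is made from cysteine, glutamate and glycine. SLC7A11 imports cystine, GCLC and GCLM form the ligase that sets the rate, GSS completes the tripeptide and GSR returns the oxidised form to glutathione. GCLC, the catalytic subunit, stood at 28.4 and 28.1 CPM in Ctrl, 30.5 and 27.8 in TN and, with an SCFA, at 61.5 and 55.5 in PRTN, 57.0 and 53.8 in TNPR, 51.3 and 52.2 in BUTN and 50.6 and 49.98 in TNBU. It rose by 1.01 ± 0.07 in PRTN, 0.93 ± 0.08 in TNPR, 0.83 ± 0.08 in BUTN and 0.79 ± 0.08 in TNBU (log2, SE, limma-voom adjusted p between 2.1e-07 and 2e-06), and none of its SCFA libraries overlapped with TN or Ctrl. GSR rose by 0.89 ± 0.06 in PRTN, 0.79 ± 0.06 in TNPR, 0.87 ± 0.06 in BUTN and 0.78 ± 0.06 in TNBU (limma-voom adjusted p between 1.4e-07 and 4.7e-07), from 61.3 and 61.5 CPM in TN to between 103 and 114 in the SCFA libraries. GCLM was called in PRTN but lay near the 1.5-fold line. It stood at 37.4 and 36.6 CPM in Ctrl, 43.9 and 37.1 in TN and, with an SCFA, at 61.5 and 61.8 in PRTN, 57.1 and 63.1 in TNPR, 46.7 and 47.7 in BUTN and 49.9 and 53.0 in TNBU, and its changes were 0.61 ± 0.08 in PRTN, 0.57 ± 0.08 in TNPR, 0.23 ± 0.08 in BUTN and 0.35 ± 0.08 in TNBU. The PRTN call was lost under 5 of 21 alternatives, with 0.46 without TN replicate 2, while the TNPR change was called under 3. SLC7A11 went the other way, from 9.01 and 8.24 CPM in TN to between 4.74 and 6.09 in the SCFA libraries. Its changes were -0.60 ± 0.15 in PRTN, -0.70 ± 0.15 in TNPR, -0.79 ± 0.15 in BUTN and -0.56 ± 0.15 in TNBU, called in PRTN, BUTN and TNPR. The Ctrl libraries, at 6.11 and 8.53 CPM, overlapped with TN, and against Ctrl the gene was called in no SCFA group. GSS stayed between 69.1 and 80.4 CPM in all 12 libraries, and its interval lay within 1.5-fold in all 4 groups.

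Glutathione peroxidases reduce peroxides at the expense of glutathione. GPX3, the secreted enzyme, had the clearest rise among abundant members. It stood at 47.7 and 45.4 CPM in Ctrl, 35.6 and 42.4 in TN and, with an SCFA, at 273 and 276 in PRTN, 226 and 258 in TNPR, 236 and 237 in BUTN and 206 and 245 in TNBU. The SCFA groups did not overlap with the others, and the log2 fold change against TN was 2.82 ± 0.10 in PRTN, 2.64 ± 0.10 in TNPR, 2.61 ± 0.10 in BUTN and 2.53 ± 0.10 in TNBU (SE, limma-voom adjusted p between 7.8e-10 and 2.1e-09). GPX8, a peroxidase of the endoplasmic reticulum, fell from 49.97 and 49.9 CPM in TN to between 21.4 and 27.4 in the SCFA libraries, with changes of -1.20 ± 0.08 in PRTN, -1.05 ± 0.08 in TNPR, -1.07 ± 0.08 in BUTN and -0.94 ± 0.08 in TNBU (limma-voom adjusted p between 1.3e-07 and 1e-06). GPX1, the cytosolic enzyme, was at 103 and 117 CPM in TN and 67.3 to 81.2 in the SCFA libraries. Its changes were -0.56 ± 0.08 in PRTN, -0.65 ± 0.08 in TNPR, -0.65 ± 0.08 in BUTN and -0.52 ± 0.08 in TNBU, called in BUTN and TNPR only and close to the 1.5-fold line in all groups. GPX4, which reduces lipid peroxides in membranes, was not called at 0.54 ± 0.07 in PRTN, 0.44 ± 0.08 in TNPR, 0.43 ± 0.08 in BUTN and 0.39 ± 0.08 in TNBU. GPX2, best known from the gut, had 3 to 9 counts in each library and was not called.

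Thioredoxin is the second reducing system, and its members also split. TXNRD1, the cytosolic reductase, stood at 348 and 349 CPM in Ctrl, 422 and 412 in TN and, with an SCFA, at 883 and 891 in PRTN, 737 and 844 in TNPR, 853 and 880 in BUTN and 772 and 776 in TNBU. Its lowest SCFA library was above the highest TN library, and the changes were 1.09 ± 0.06 in PRTN, 0.92 ± 0.06 in TNPR, 1.06 ± 0.06 in BUTN and 0.89 ± 0.06 in TNBU (log2, SE, limma-voom adjusted p between 1.6e-08 and 1e-07). SRXN1, which repairs overoxidised peroxiredoxins, stood at 53.2 and 58.9 CPM in Ctrl, 62.8 and 63.0 in TN and, with an SCFA, at 167 and 165 in PRTN, 133 and 167 in TNPR, 152 and 157 in BUTN and 146 and 164 in TNBU. It rose by 1.40 ± 0.10 in PRTN, 1.24 ± 0.10 in TNPR, 1.30 ± 0.10 in BUTN and 1.30 ± 0.10 in TNBU (limma-voom adjusted p between 1.5e-07 and 4.1e-07). TXN, the cytosolic thioredoxin that TXNRD1 reduces, stood at 176 and 160 CPM in Ctrl, 191 and 204 in TN and, with an SCFA, at 118 and 115 in PRTN, 112 and 122 in TNPR, 130 and 136 in BUTN and 131 and 132 in TNBU. All SCFA libraries were below TN and Ctrl. Its changes were -0.76 ± 0.07 in PRTN, -0.75 ± 0.07 in TNPR, -0.57 ± 0.07 in BUTN and -0.59 ± 0.07 in TNBU, called in PRTN, TNPR and TNBU and just under the threshold in BUTN, and the TNBU call was lost under 5 of 21 alternatives. Against Ctrl, where TXN was lower than in TN, its changes were -0.52 to -0.33 and none was called. TXNRD2, the mitochondrial reductase, went from 22.8 and 25.8 CPM in TN to between 10.9 and 15.2, by -1.07 ± 0.11 in PRTN, -1.05 ± 0.11 in TNPR, -0.79 ± 0.11 in BUTN and -0.85 ± 0.11 in TNBU (limma-voom adjusted p between 4.8e-06 and 5.6e-05). TXN2, the mitochondrial thioredoxin, lay between 41.9 and 52.7 CPM in all 12 libraries, with an interval within 1.5-fold in each group.

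Of the peroxiredoxins, which reduce hydrogen peroxide, most with electrons from thioredoxin and PRDX6 with glutathione, PRDX1 was the only riser. PRDX1 stood at 635 and 620 CPM in Ctrl, 656 and 640 in TN and, with an SCFA, at 1432 and 1423 in PRTN, 1274 and 1468 in TNPR, 1223 and 1281 in BUTN and 1248 and 1357 in TNBU. The SCFA libraries did not overlap with the rest, and the changes were 1.14 ± 0.07 in PRTN, 1.08 ± 0.07 in TNPR, 0.95 ± 0.07 in BUTN and 1.01 ± 0.07 in TNBU (log2, SE, limma-voom adjusted p between 2.6e-08 and 1.7e-07). PRDX3, the mitochondrial member, went from 232 and 237 CPM in TN to between 141 and 161 in the SCFA libraries. Its changes of -0.65 ± 0.06 in PRTN, -0.64 ± 0.06 in TNPR, -0.55 ± 0.06 in BUTN and -0.57 ± 0.06 in TNBU were called in PRTN and TNPR and fell just short of 1.5-fold in the butyrate groups. PRDX4, PRDX5 and PRDX6 kept within 1.5-fold in all 4 intervals, while PRDX2 did so in 2 groups and was called in none.

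**Figure D3:**
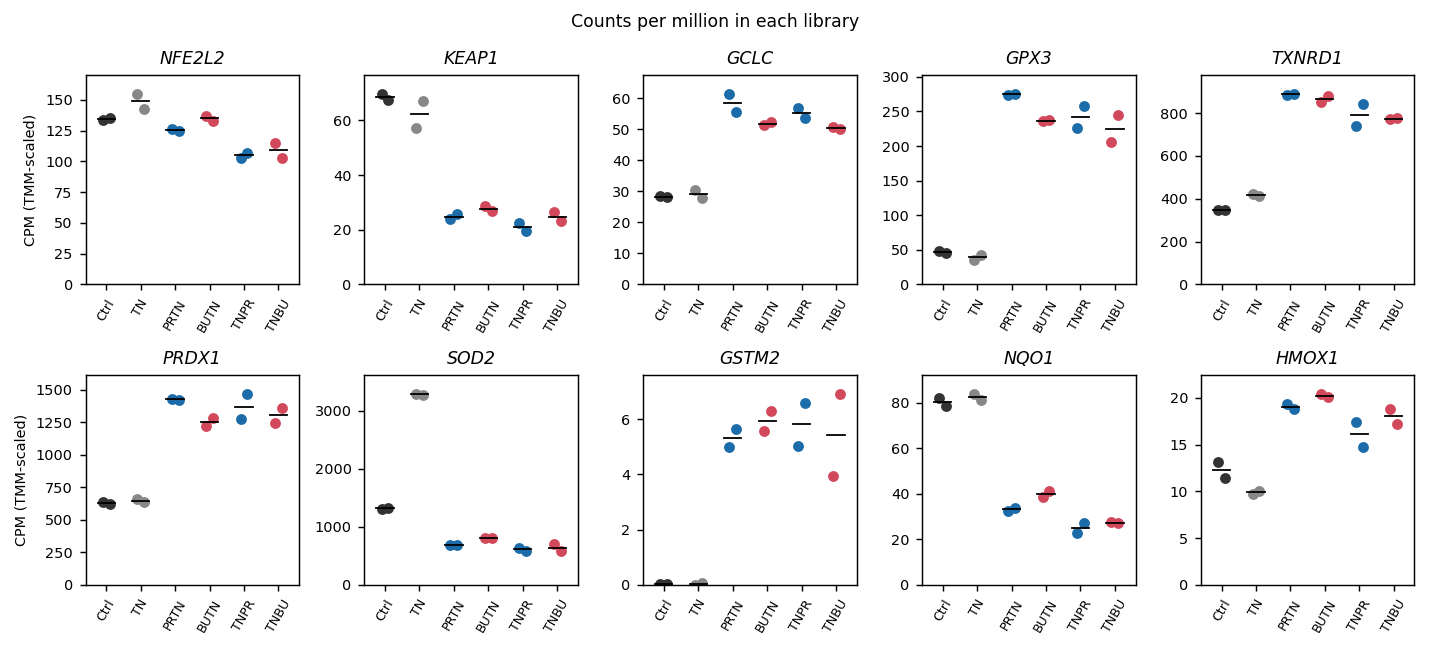
CPM of 10 members in each of the 12 libraries, with 1 point a library and a bar at the mean of the 2 replicates, and each vertical axis starting at 0. NFE2L2 stayed within 1.5-fold of TN, KEAP1, SOD2 and NQO1 were lower in all SCFA libraries than in TN, and the other 6 genes were higher in all of them.

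Among the enzymes that remove superoxide and hydrogen peroxide, SOD2 was the only member to rise with TNF-α and to fall with each SCFA. It stood at 1313 and 1327 CPM in Ctrl, 3292 and 3281 in TN and, with an SCFA, at 693 and 685 in PRTN, 637 and 584 in TNPR, 804 and 800 in BUTN and 696 and 587 in TNBU. The replicates lay close together and the 8 SCFA libraries were all below Ctrl. TNF-α raised it by 1.32 ± 0.06 (log2, SE, limma-voom adjusted p = 6.5e-07), and the log2 fold changes of the SCFA groups against TN were -2.25 ± 0.07 in PRTN, -2.43 ± 0.07 in TNPR, -2.04 ± 0.06 in BUTN and -2.36 ± 0.07 in TNBU (limma-voom adjusted p between 1.2e-10 and 5.3e-10). Against Ctrl the values were -0.94 ± 0.07 in PRTN, -1.11 ± 0.07 in TNPR, -0.72 ± 0.07 in BUTN and -1.05 ± 0.07 in TNBU, all called lower. SOD1, the cytosolic dismutase, was at 139 and 140 CPM in TN and 105 to 124 in the SCFA libraries and was not called. CAT, which splits hydrogen peroxide in peroxisomes, stood at 17.7 and 18.6 CPM in Ctrl, 15.3 and 12.2 in TN and, with an SCFA, at 24.1 and 24.3 in PRTN, 23.5 and 25.8 in TNPR, 23.5 and 22.8 in BUTN and 23.5 and 23.3 in TNBU. It rose against TN by 0.82 ± 0.10 in PRTN, 0.84 ± 0.10 in TNPR, 0.76 ± 0.10 in BUTN and 0.78 ± 0.10 in TNBU (limma-voom adjusted p between 1.3e-05 and 3.9e-05), but TN itself was the lowest group and against Ctrl no SCFA group was called. Without TN replicate 2 the BUTN change of CAT was 0.57, under the threshold. SOD3, the secreted dismutase, had 0 counts in both Ctrl libraries, 0 and 2 in TN, and 6 to 14 in the SCFA libraries. The summed counts gave a ratio to TN between 6.49 (95% counting interval 1.53 to 58.2) in PRTN and 10.7 (2.65 to 93.8) in TNBU. Set against a floor of 3 counts over the Ctrl group, the summed count was 4.51-fold higher in PRTN, 5.26-fold in TNPR, 5.71-fold in BUTN and 7.45-fold in TNBU. These values take the SCFA counts as exact, so they are not lower limits. Called in all 4 groups against TN by limma-voom, it lost the call under 3 of 20 alternatives in PRTN, 2 in TNPR, 4 in BUTN and 1 in TNBU. DESeq2 did not call it in PRTN, TNPR or BUTN (adjusted p = 0.11, 0.082 and 0.068), and leaving out TN replicate 1 ended the limma-voom call in all 4 groups, with changes of 1.45 to 2.17 (log2) in place of 2.62 to 3.32. The intervals cover counting error only, and the floor covers that of the Ctrl counts alone.

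Glutathione transferases join glutathione to reactive compounds, and of the 10 members 5 rose and 4 fell in PRTN, BUTN and TNBU, and 4 rose and 4 fell in TNPR. Among all tested genes 23.1% to 25.0% rose and 14.8% to 16.9% fell. Of these risers GSTM2 and GSTM4 were near 0 in Ctrl and TN and passed the filter on low counts only through the SCFA libraries. Their place among the risers thus follows in part from the filter. GSTM2 had the largest fold of the members. It had 1 count in each Ctrl library and 0 and 2 in TN. The SCFA libraries held 172 and 186 in PRTN, 170 and 206 in TNPR, 178 and 218 in BUTN, and 112 and 208 in TNBU. The ratio of summed counts to TN was 145 (95% counting interval 39.9 to 1204) in PRTN, 158 (43.5 to 1311) in TNPR, 163 (44.8 to 1348) in BUTN and 149 (40.97 to 1237) in TNBU. The calls in GSTM2 held under all 20 alternatives that kept the 1.5-fold rule and tested the gene. The filter that removes any gene with a 0 in a library left it out. In CPM the SCFA libraries still lay at only 3.93 to 6.92. The bases before its start are shown because no other member changed as much. This stretch, chr1:109667807-109668021 on the plus strand (RefSeq, GRCh38.p14), ends before the first annotated GSTM2 exon and holds 14 CpG pairs, marked in capitals.
GSTM2 upstream: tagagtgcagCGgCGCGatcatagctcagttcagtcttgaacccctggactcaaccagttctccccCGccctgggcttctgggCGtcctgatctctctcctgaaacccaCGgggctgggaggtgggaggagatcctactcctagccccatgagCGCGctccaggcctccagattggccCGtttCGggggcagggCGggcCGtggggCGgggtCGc
The full window before and after the start of GSTM2 held no TGACNNNGC match.

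GSTM3 rose from 29.5 and 29.3 CPM in TN to between 53.7 and 66.0, by 1.03 ± 0.10 in PRTN, 1.04 ± 0.10 in TNPR, 0.89 ± 0.10 in BUTN and 1.00 ± 0.10 in TNBU (log2, SE, limma-voom adjusted p between 2.7e-06 and 1.3e-05). GSTA4, which conjugates a product of lipid peroxidation, rose from 3.65 and 2.84 CPM to between 6.91 and 8.58, by 1.39 ± 0.17 in PRTN, 1.31 ± 0.18 in TNPR, 1.26 ± 0.18 in BUTN and 1.24 ± 0.18 in TNBU (limma-voom adjusted p between 2.1e-05 and 6.8e-05). GSTM4 had at most 2 counts in each Ctrl and TN library and 2 to 12 in the SCFA libraries. Its calls in PRTN, BUTN and TNBU were lost under alternatives, in PRTN under 11 of 20. Mu class genes share long stretches of sequence, and the deposited counts of GSTM2 and GSTM4 are not whole in the SCFA libraries, so reads were divided among genes there. MGST3 rose by 0.72 ± 0.07 in PRTN, 0.71 ± 0.07 in TNPR, 0.65 ± 0.07 in BUTN and 0.76 ± 0.07 in TNBU (limma-voom adjusted p between 2e-06 and 8.2e-06), from 75.8 and 77.9 CPM to between 117 and 137. Its relatives moved the other way. MGST2, which also makes leukotriene C, stood at 15.3 and 12.9 CPM in Ctrl, 12.5 and 13.5 in TN and, with an SCFA, at 4.08 and 4.56 in PRTN, 4.74 and 4.13 in TNPR, 5.23 and 5.75 in BUTN and 5.15 and 4.88 in TNBU. It was lower in all SCFA groups, with log2 fold changes of -1.59 ± 0.13 in PRTN, -1.55 ± 0.13 in TNPR, -1.24 ± 0.13 in BUTN and -1.37 ± 0.13 in TNBU (limma-voom adjusted p between 6.2e-07 and 3.8e-06). MGST1 went from 84.0 and 81.9 CPM in TN to between 37.5 and 46.4, by -0.93 ± 0.06 in PRTN, -1.09 ± 0.06 in TNPR, -0.86 ± 0.06 in BUTN and -1.03 ± 0.06 in TNBU. GSTK1, found in mitochondria and peroxisomes, went from 43.7 and 44.4 CPM to between 19.1 and 23.8, by -1.16 ± 0.08 in PRTN, -1.06 ± 0.08 in TNPR, -1.09 ± 0.08 in BUTN and -0.996 ± 0.08 in TNBU. GSTO1 changed by -0.75 ± 0.10 in PRTN, -0.91 ± 0.10 in TNPR, -0.60 ± 0.10 in BUTN and -0.67 ± 0.10 in TNBU, and its BUTN and TNBU calls were lost under 4 and 2 of 21 alternatives. GSTP1, the abundant pi class enzyme, was at 924 and 994 CPM in TN and 1128 to 1415 in the SCFA libraries and was not called at 0.50 ± 0.05 in PRTN, 0.27 ± 0.05 in TNPR, 0.54 ± 0.05 in BUTN and 0.39 ± 0.05 in TNBU.

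NQO1 and HMOX1, both among the 12 members taken here as NRF2 readouts, moved in opposite directions. NQO1, a quinone reductase, stood at 82.0 and 78.8 CPM in Ctrl, 83.9 and 81.1 in TN and, with an SCFA, at 32.5 and 33.7 in PRTN, 22.9 and 26.9 in TNPR, 38.6 and 41.4 in BUTN and 27.6 and 27.1 in TNBU. All SCFA libraries were below Ctrl and TN, and the changes were -1.32 ± 0.08 in PRTN, -1.73 ± 0.08 in TNPR, -1.04 ± 0.07 in BUTN and -1.59 ± 0.08 in TNBU (log2, SE, limma-voom adjusted p between 3.7e-09 and 1.9e-07). HMOX1, which breaks down haem, stood at 13.2 and 11.4 CPM in Ctrl, 9.72 and 10.1 in TN and, with an SCFA, at 19.3 and 18.8 in PRTN, 17.5 and 14.7 in TNPR, 20.4 and 20.1 in BUTN and 18.8 and 17.3 in TNBU. Its changes were 0.95 ± 0.11 in PRTN, 0.70 ± 0.11 in TNPR, 1.03 ± 0.11 in BUTN and 0.86 ± 0.11 in TNBU (limma-voom adjusted p between 5.5e-06 and 0.00017). Against Ctrl, where HMOX1 was higher than in TN, it was called in PRTN and BUTN only. Without TNPR replicate 1 the HMOX1 change in TNPR was 0.53, under the threshold. FTH1, which stores iron, was at 2124 and 2199 CPM in TN and 1421 to 1904 in the SCFA libraries. It was called lower in PRTN alone, at -0.59 ± 0.04 in PRTN, -0.38 ± 0.04 in TNPR, -0.38 ± 0.04 in BUTN and -0.20 ± 0.04 in TNBU, and the call was lost under 4 of 21 alternatives. OSGIN1, an NRF2 target that slows growth, was called higher in BUTN alone, at 0.51 ± 0.13 in PRTN, 0.16 ± 0.13 in TNPR, 0.67 ± 0.13 in BUTN and 0.46 ± 0.13 in TNBU. KEAP1, NQO1 and SOD2 also stand in gene lists that the study drew up from these libraries, so their fall is not independent evidence of those lists.

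Against Ctrl fewer members were called than against TN. In PRTN 14 members were higher and 10 lower, beside 22.6% and 16.9% of all genes. TNPR had 12 and 10, beside 23.6% and 16.8%. BUTN had 14 and 9, beside 22.0% and 14.9%. TNBU had 11 and 10, beside 23.6% and 16.5%. In all 4 groups 11 members were higher and 9 lower, a count for which the share of all genes was not taken against Ctrl. The 11 include SOD3 and GSTM2, which passed the filter on low counts only through the SCFA libraries. CAT, GSTO1, TXN, SLC7A11 and FTH1, each called in at least 1 SCFA group against TN, were called in none against Ctrl. HMOX1 was called in 2 groups and GSTM4 in 1. GPX1 was called lower in all 4 against Ctrl, and PRDX2, called in none against TN, was called lower in TNPR and TNBU. No member was called in opposite directions against TN and Ctrl.

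Of 87 other genes of the pathway 84 were tested. None was called in TN against Ctrl by limma-voom or edgeR, while DESeq2 called 1 higher. At an unadjusted p under 0.05, 14 were higher and 10 lower, and the share of all genes was not taken there. Against TN, 25 were higher and 19 lower in PRTN, 26 and 20 in TNPR, 23 and 17 in BUTN, and 26 and 19 in TNBU. These are 27.4% to 31% higher and 20.2% to 23.8% lower, beside 23.1% to 25.0% and 14.8% to 16.9% of all tested genes. Some of them, such as AKR1C1, AKR1C2, NCF1 and NCF4, were near 0 in Ctrl and TN. They passed the filter on low counts only through the SCFA libraries, so the share called higher follows in part from the filter. Of the 9 partners and regulators of NRF2, 2 were higher and 5 lower in PRTN and in TNPR, 1 and 4 in BUTN, and 2 and 4 in TNBU, with medians between -0.67 and -0.50. SQSTM1, the p62 protein that draws KEAP1 into autophagy, changed by -1.46 to -0.75 (log2). RBX1, part of the ligase that ubiquitinates NRF2, changed by -0.98 to -0.81. NFE2L3, a relative of NRF2, rose by 0.90 to 1.11. These 3 were called in each group. The small MAF partners, named after their values were seen, went different ways. MAFG changed by -0.85 to -0.61, called lower in each group, and MAFK by 0.52 to 0.96, called higher in all but BUTN.

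Of 17 further NRF2 target enzymes tested, 8 or 9 rose (47.1% or 52.9%) and 2 fell (11.8%) in each SCFA group. The shares of all genes are given above, and the medians lay between 0.57 and 0.79. Among the 17, AKR1C1 and AKR1C2 had at most 1.03 counts in each Ctrl and TN library. They were tested only because the SCFA libraries held 5.86 to 19.24 counts, so any rise of theirs follows in part from the filter. BLVRB, a biliverdin reductase, rose by 1.85 to 2.07 (log2), and NQO2, a relative of NQO1, by 1.16 to 1.62. UGDH, which makes UDP-glucuronate, changed by -1.96 to -1.39. Of the genes for NADPH supply, NNT, which makes NADPH in mitochondria, was at 71.3 and 70.6 CPM in TN and 19.9 to 24.9 in the SCFA libraries, a log2 change of -1.69 to -1.61.

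In the group for glutathione breakdown, glutaredoxins and cysteine supply, GLRX rose by 1.72 to 1.97 (log2) and CTH, which makes cysteine, by 1.57 to 2.19. OPLAH, which recycles 5-oxoproline, changed by -1.81 to -1.42. Among the thioredoxin inhibitor, sestrins and sulfoxide reductases, TXNIP, which binds and blocks thioredoxin, was at 68.7 CPM in both TN libraries and 654 to 881 in the SCFA libraries, a log2 rise of 3.34 to 3.63. SESN3 was at 0.0372 and 0.251 CPM in TN and 7.54 to 8.93 in the SCFA libraries, and MSRA, a methionine sulfoxide reductase, at 2.31 and 2.40 in TN and 0.207 to 0.549. Of the selenoprotein genes EEFSEC, the elongation factor for selenocysteine, and SELENOW rose by 0.95 to 1.08 and 0.77 to 0.92, and SELENOH changed by -1.09 to -0.96. Apart from CYBA, the listed genes for oxidases that make reactive oxygen were at low levels. CYBA was at 196 and 250 CPM in TN and 120 to 134 in the SCFA libraries, called lower in all groups. NOX4, the main renal NADPH oxidase, went from 1.00 and 0.897 CPM in TN to between 0.118 and 0.657, called in all groups, while NCF4 rose and reached no more than 1.43 CPM. Of 6 iron genes SLC40A1, the iron exporter ferroportin, rose by 1.75 to 2.04, and the importers SLC11A2 and TFRC changed by -1.45 to -1.38 and -1.07 to -0.96.

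**Figure D4:**
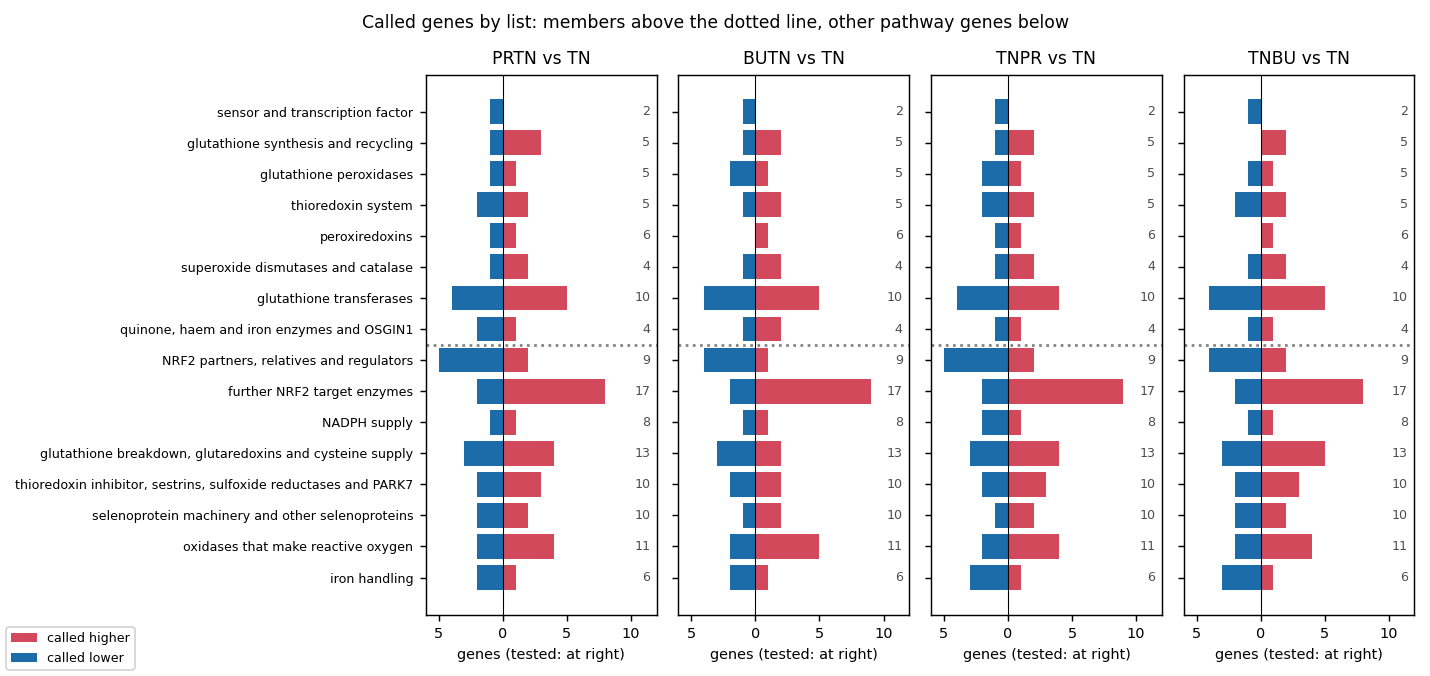
Bars count genes called higher (red, to the right) and lower (blue, to the left) against TN for each role of the members, above the dotted line, and for each list of other pathway genes, below it, with the number tested at the right edge. Most lists hold genes on both sides in each SCFA group.

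Propionate and butyrate, of which butyrate has the longer carbon chain, gave no called difference among the members at these unequal doses. Before TNF-α (PRTN against BUTN) 0 of 41 were called by limma-voom, edgeR or DESeq2, beside 0.168% of all genes. At an unadjusted limma-voom p under 0.05 there were 10, beside 3418 of all 24342 tested genes. For 36 of the 41 members the 95% interval lay within 1.5-fold. GCLM was higher with propionate by 0.38 ± 0.08 (log2, SE, limma-voom adjusted p = 0.057), and FTH1 differed by -0.21 ± 0.04 (limma-voom adjusted p = 0.053). After TNF-α (TNPR against TNBU) the 3 tools again called 0, beside 0.00822% of all genes, with 37 intervals within 1.5-fold. At an unadjusted p under 0.05 there were 7, beside 2096 of all tested genes. GCLM and FTH1 had the same signs there, at 0.22 ± 0.08 and -0.19 ± 0.04. GPX2, SOD3, GSTM2 and GSTM4, whose counts are low, had wider intervals in both.

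The order of treatment also gave no call. TNPR against PRTN had 0 members called by the 3 tools, beside 0.160% of all genes. At an unadjusted p under 0.05 there were 12, beside 2729 of all 24342 tested genes. TNBU against BUTN had 0 called, beside 0.267%, with 9 at that unadjusted p, beside 3515 of all tested genes. The member nearest to a call was NQO1. Its TNBU libraries, at 27.6 and 27.1 CPM, lay below its BUTN libraries, at 38.6 and 41.4, a difference of -0.55 ± 0.08 (log2, SE, limma-voom adjusted p = 0.012), just under 1.5-fold. With propionate the NQO1 difference was -0.42 ± 0.08 (limma-voom adjusted p = 0.081). NFE2L2 differed between the later and the earlier treatment by -0.26 ± 0.06 with propionate and -0.31 ± 0.06 with butyrate, at limma-voom adjusted p of 0.17 and 0.052. FTH1 was higher in the later treatment by 0.21 ± 0.04 and 0.19 ± 0.04. In the test of whether the order difference itself differed between the SCFAs, 0 of 41 were called by any of the 3 tools. Of all genes 0% were called by limma-voom. No member had an unadjusted p under 0.05, beside 935 of all tested genes. These later groups were also collected at another time after TNF-α.

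**Figure D5:**
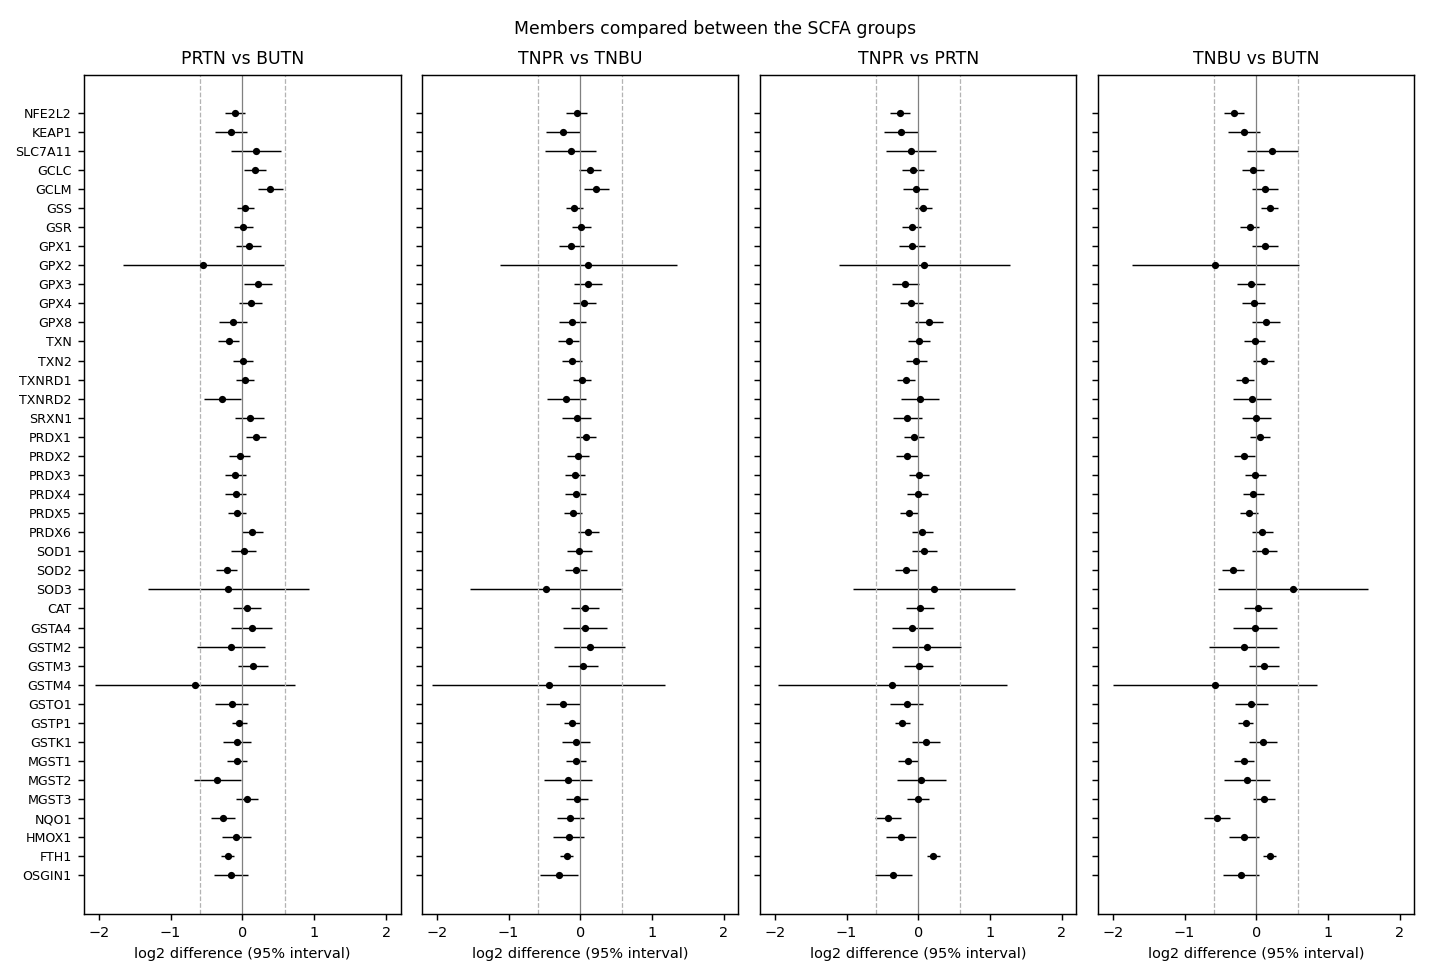
Log2 differences of the 41 tested members between SCFA groups, with 95% intervals from limma-voom, and dashed lines at 1.5-fold. Most points lie within 0.5 of 0, and the longest intervals belong to GPX2, SOD3 and GSTM4.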

How the data were processed

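Per the labels and the study's methods, stranded TruSeq mRNA libraries from HK2 cells were sequenced on the HiSeq platform. The authors mapped reads on GRCh38 with STAR 2.6.1a and quantified genes with RSEM on GENCODE release 26. FastQC 0.11.5 is also named in the submitters' processing notes. The RSEM strand setting is not given in the sources used here, so reads of overlapping or antisense genes may not be apart. The deposited files hold expected counts, that is estimated read counts for each gene, unscaled and unfiltered, which need not be whole. Groups came from each library's own label. A general treatment text in the labels names other agents, which no library's own label gives.

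Counts were tested with limma 3.58.1 (voom, TMM factors from edgeR 4.0.16, R 4.3.3) in 1 model of all 12 libraries, after removing genes with a geometric mean of count plus 1, minus 1, under 1, which left 24342 of 58278. With 2 replicates a group, the moderated test borrowed spread across genes (6.12 prior degrees of freedom). The tool, scaling and thresholds follow the study's methods. The adjustment method is not given in the sources used here. The filter was applied to count plus 1, since the mean taken on counts themselves would remove any gene with a 0 and leave 19096 genes (an alternative). The edgeR quasi-likelihood test and DESeq2 1.42.0 ran on rounded counts. On simulated counts for 23646 genes, 200 genes were changed in TN against Ctrl, none of them with a low expected count. Of these changes limma-voom recovered 87% at 2-fold and 99% at 4-fold, with 3 false calls. Recovery for low-count genes and for the SCFA comparisons was not tested. The members, roles, pathway lists and marker lists were chosen with earlier results of these data known. All 42 members are accounted for. CPM in every library, or their range, is given for NFE2L2, KEAP1, members called in TN and, per role, up to 4 members called in an SCFA group with the largest mean change against TN, and other pathway lists name up to 3 genes called in all 4 SCFA groups. Replicate numbers did not pair the libraries (0 of 15 correlations over 0.1). Counting intervals are exact (Clopper-Pearson, 95%). Positions are those of RefSeq on GRCh38.p14 or GENCODE release 44, in which 41 members matched by identifier and SOD2 by symbol. Protein sequences were not used here. Results for some genes of the pathway lists are not reported here.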

Additional observations from a re-analysis of the deposited data

How the results depend on the processing

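No call changed direction under any of the 21 alternatives in test, scaling, filter, samples or replicate or under the other fold thresholds. The number of members called stayed within 1.5 times of the reported number except where the fold threshold moved. At a fold over 2 it was 17 in PRTN, 15 in TNPR, 14 in BUTN and 13 in TNBU against TN, and 15 in PRTN and 12 in BUTN against Ctrl. With no fold threshold it was 3 in TN against Ctrl, 39 in TNBU against TN, 36 in BUTN and 34 in TNBU against Ctrl, and 1 (NQO1) in TNBU against BUTN. Leaving out each library in turn gave 25 to 28 called members in PRTN, 26 to 28 in TNPR, 23 to 27 in BUTN and 23 to 26 in TNBU against TN. Adding the replicate number as a block gave 28, 26, 26 and 24, the same as without the block, and changed no other count of calls. Of 105 called values over TN against Ctrl and the SCFA groups against TN, 83 were called under every alternative that kept the threshold and 22 were lost under 1 or more. Those 22 are changes near 1.5-fold of CAT, FTH1, GCLM, GPX1, GSTO1, HMOX1, OSGIN1, PRDX3, SLC7A11 and TXN, and the low-count genes SOD3 and GSTM4. A further 18 of 100 values not called were called under 1 or more. Scaling by library size alone moved the median of the members against TN to between 0.21 and 0.38, and a filter that removes any gene with a 0 in a library, and so GSTM2, GSTM4 and SOD3, moved it to between -0.10 and 0.0041. At 27269986 counts or more a count of 3 is at most 0.11 CPM, so depth limits GPX2, SOD3, GSTM4 and the Ctrl and TN levels of GSTM2.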

Other observations

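A pair of steps can be set side by side by pathway, a grouping made after the values were seen and so given without a test. In the cytosolic thioredoxin chain the reductase TXNRD1 and the peroxidase PRDX1 rose in all 4 groups while TXN itself had negative changes, and TXNIP, which binds thioredoxin, rose by 3.34 to 3.63 (log2). Among haem and iron genes HMOX1 and BLVRB rose together with SLC40A1, through which iron leaves the cell, while the ferritin heavy chain FTH1 was called lower in PRTN alone.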
